A study of Mus musculus with 6 samples.

Results

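The endoplasmic reticulum protein processing genes are those whose entry in the deposited table of open chromatin regions names the pathway Protein processing in endoplasmic reticulum. The cytosolic heat shock genes Dnaja1, Hspa1a, Hspa1b, Hspa8, Hsp90aa1, Hsp90ab1 and Hsph1 were left out. The rule found 110 genes of 10709 with a peak in the table, and they held 193 of its 22412 peaks. No measured accessibility entered the rule.

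Nuclei of mouse liver were profiled by ATAC-seq, an assay of open chromatin that uses a transposase to place sequencing adapters where DNA is accessible. The control group held 3 liver samples labelled Ad-EGFP, given an adenovirus for the green fluorescent protein EGFP. The other group held 3 labelled Ad-Dyrk1b, given an adenovirus that overexpresses the protein kinase Dyrk1b. Both groups thus carried an adenovirus, and the comparison asks how added Dyrk1b alters open chromatin. The labels give no strain, sex, age, dose or time after infection, and do not say which liver cells took up the virus or whether animals were pooled. Nor do they state that each sample of a group is its own animal. The p-values therefore set the group difference only against the spread of these samples, and some of that spread may be technical.

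Proteins that a liver secretes or places in membranes enter the endoplasmic reticulum through the Sec61 channel, receive glycans from the oligosaccharyltransferase and fold with the help of lumenal chaperones, disulfide enzymes and the calnexin cycle. Folded cargo leaves in COPII vesicles, and chains that fail to fold are drawn back to the cytosol, ubiquitinated and destroyed, a route called ER-associated degradation or ERAD. When unfolded chains build up, the sensors IRE1 (gene Ern1), PERK (Eif2ak3) and ATF6 (Atf6) start the unfolded protein response, in which IRE1 splices the RNA of the transcription factor Xbp1. Hepatocytes are rich in this machinery and make most plasma proteins.

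ATF6 and XBP1 act through short DNA elements, so the promoters of the genes were searched for them before the measurements are given. RefSeq promoter sequences of the mouse build GRCm38.p6, from 250 bases before to 50 after each start, were matched by symbol for 92 of the 110 genes, which gave 114 promoters. The ER stress response element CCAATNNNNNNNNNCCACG, read on both strands, was found in 3 of these 114 promoters (2.63%) and in 0.119% of all 32851 promoters of the same length. The 3 upstream sequences are shown because they mark genes of the pathway with a known stress element at the start. Each is printed 5′ to 3′ on the strand of its gene over the 250 bases before the start, with the element in capitals. They belong to Canx, the lectin chaperone calnexin, Dnajc3, a co-chaperone that restrains PERK, and Ero1b, an oxidase that keeps disulfide formation going.
Canx (chr11:50325674-50325923, minus strand): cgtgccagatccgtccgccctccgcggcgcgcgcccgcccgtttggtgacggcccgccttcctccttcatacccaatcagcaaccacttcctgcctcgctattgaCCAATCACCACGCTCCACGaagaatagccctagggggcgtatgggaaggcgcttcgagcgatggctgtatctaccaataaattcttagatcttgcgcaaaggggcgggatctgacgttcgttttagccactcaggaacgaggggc
Dnajc3 (chr14:118937682-118937931, plus strand): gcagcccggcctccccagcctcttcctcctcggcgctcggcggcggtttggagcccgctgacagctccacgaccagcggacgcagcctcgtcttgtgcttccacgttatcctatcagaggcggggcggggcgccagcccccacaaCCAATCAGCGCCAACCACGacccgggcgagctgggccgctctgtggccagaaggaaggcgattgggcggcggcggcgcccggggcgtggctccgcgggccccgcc
Ero1b (chr13:12565633-12565882, plus strand): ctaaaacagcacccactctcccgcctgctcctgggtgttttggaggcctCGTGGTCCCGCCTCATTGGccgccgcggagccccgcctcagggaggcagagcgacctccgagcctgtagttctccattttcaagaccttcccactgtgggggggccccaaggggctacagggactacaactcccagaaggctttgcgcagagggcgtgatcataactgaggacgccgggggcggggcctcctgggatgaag
The element began 145 bases before the start in Canx, 105 in Dnajc3 and 201 in Ero1b, where it lay on the opposite strand.

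The XBP1 element TGACGTGG was found in 6 of the 114 promoters (5.26%) and in 0.676% of all promoters. Its reverse complement opens with the CCACG that closes the ER stress response element, and none of the 114 promoters held both. The element with 8 bases on either side is printed for the 5 genes in which it lay before the start, to show how its surroundings differ. In Sec23a, a coat protein of COPII vesicles, it lay after the start and is not printed.
Mapk8 (chr14:33447179-33447202, minus strand): ctgcgcgaTGACGTGGgcgggcgt
Sec24d (chr3:123267462-123267485, plus strand): cgggcgccTGACGTGGcactagca
Txndc5 (chr13:38528037-38528060, minus strand): ctcgccgcTGACGTGGcgctagcc
Ube2j1 (chr4:33031304-33031327, plus strand): agcgcccgCCACGTCAggccgact
Vcp (chr4:43000606-43000629, minus strand): cggccaatTGACGTGGcgttacta
In Ube2j1 it lay on the opposite strand. The second ER stress response element ATTGGNCCACG was in 0 of the 114 promoters and in 0.0365% of all. The ATF4 element TGATGNAA was in 2 of the 114 (1.75%), those of Map2k7 and Txndc5, and in 3.97% of all. A match says only that these letters are present. The deposited peaks follow another genome build, so they were joined to these promoters by gene symbol and not by position.

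Of the 193 peaks of the pathway genes, 192 passed a filter on low counts, and 1 intronic peak of Rrbp1, which has other peaks, did not. All peaks of the table together held 762633 to 1267934 reads per library, and the median peak held 26 to 47. Levels are given as CPM, the read count of a peak scaled to the reads in peaks of its library after TMM normalization, and a log2 change is that of Dyrk1b against control with its standard error (SE). Positions and the numbering of exons and introns follow the deposited table. In the check of the labels, a peak in exon 9 of Dyrk1b held 10, 1 and 3 reads in the controls and 27, 30 and 53 in the Dyrk1b libraries, a log2 change of 2.64 ± 0.50 (SE). A second peak, in exon 11, had a log2 change of 1.61 ± 0.42 (SE). Both peaks lie in exons, and the virus also carries a Dyrk1b sequence. Whether the added reads came from the virus or from the mouse gene was not tested.

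At the endoplasmic reticulum genes no peak passed the threshold of an adjusted p under 0.05. By edgeR's quasi-likelihood test, 0 of their 192 peaks were called, against 7 of 22051 peaks in all, or 0.0317%. DESeq2 also called 0 of the 68 pathway peaks to which it gave an adjusted p, against 0.327% of such peaks in all. The count with limma-trend was 0 of 192, against 0.00907%. At an unadjusted p under 0.05, 13 pathway peaks had higher values with Dyrk1b, or 6.77%, beside a background of 6.44%. Another 17 had lower values, or 8.85%, beside 7.72%. These 30 peaks lay at 27 genes. In 15 peaks (7.81%) all Dyrk1b libraries lay above all controls, beside 9.53% of all peaks, and in 15 (7.81%) all lay below, beside 9.97%. The shares at the pathway genes were thus near those of the whole table. The lowest FDR for these peaks in the authors' deposited table was 0.278, and no peak of that table has an FDR under 0.05.

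Strong contrasts lay at single peaks of different branches, among them the vesicle coat gene Sec31b, the co-chaperone Dnajc3 and the translocation factor Tram1. The Sec31b peak in exon 21 of 26 (chromosome 19, 44507512 to 44508135) held 23.4, 24.3 and 14.8 CPM in the controls and 65.0, 37.5 and 51.4 with Dyrk1b. All Dyrk1b libraries lay above all controls, with a log2 change of 1.28 ± 0.33 (SE) and an adjusted p of 0.105 by edgeR's quasi-likelihood test. This was the lowest adjusted p at any gene of the pathway. Sec31b encodes an outer coat protein of the COPII vesicles that leave the endoplasmic reticulum.

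**Figure D1:**
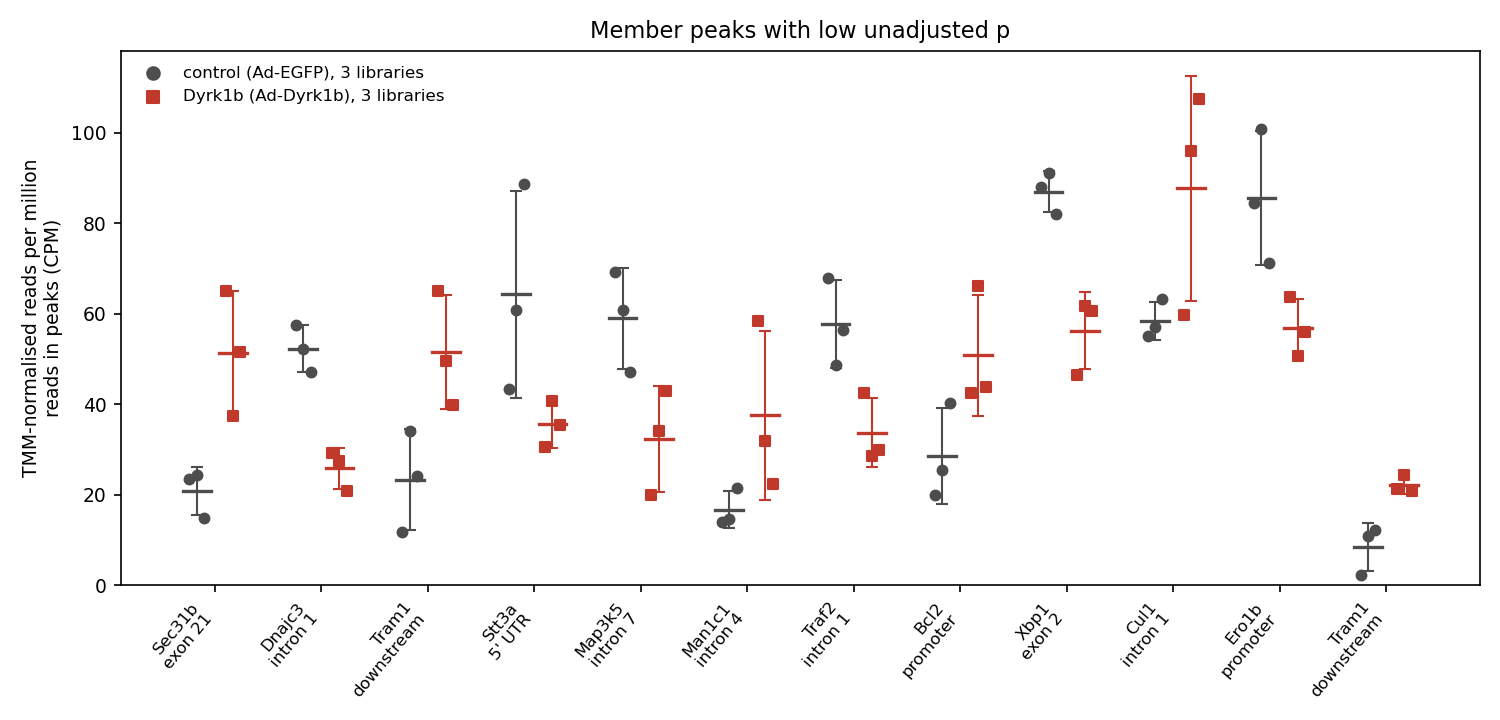
Accessibility in CPM (y axis, linear) of 12 peaks of the pathway genes with low unadjusted p, with 1 point per library, a bar for the group mean and whiskers for 1 SD (n = 3 per group). Grey circles are controls and red squares are Dyrk1b libraries; the groups do not overlap at Sec31b, where controls reach 24.3 and Dyrk1b libraries start at 37.5, and they do overlap in range at Cul1.

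Of the stress sensors, Ern1, Atf6 and Xbp1 had 8 peaks, of which 5 had a positive and 3 a negative log2 change, with a median of 0.13. Eif2ak3 and its downstream factors Atf4 and Ddit3 were not analysed here, nor were the lumenal chaperones Hspa5 and Hsp90b1. The peak with the clearest separation lay in exon 2 of 5 of Xbp1 (chromosome 11, 5471583 to 5472298), 1281 bases past the start. It held 87.9, 91.1 and 82.0 CPM in the controls and 46.4, 61.7 and 60.7 with Dyrk1b, so that every Dyrk1b library lay below every control. The log2 change was -0.62 ± 0.23 (SE), with an unadjusted p of 0.00964 and an adjusted p of 0.238 by edgeR's quasi-likelihood test. In the 5′ UTR of Xbp1 the controls held 32.8, 19.4 and 43.0 CPM and the Dyrk1b libraries 22.6, 18.7 and 24.6. There the groups overlapped, with control 2 among the Dyrk1b libraries, and the log2 change was -0.51 ± 0.37 (SE, adjusted p = 0.521 by edgeR).

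Ern1, the gene of the IRE1 kinase and endonuclease that splices Xbp1 RNA, had 4 peaks, all with a positive log2 change and none near the threshold. Its promoter peak (chromosome 11, 106378267 to 106379147) was among the stronger of the sensor peaks and nearly level between groups. It held 102, 64.4 and 99.5 CPM in the controls and 82.3, 92.6 and 101 with Dyrk1b, a log2 change of 0.07 ± 0.22 (SE). Without control 2 the value was -0.12, and without Dyrk1b 3 it was -0.01, so the promoter gave no stable direction. The log2 changes were 0.49 ± 0.41 (SE) in intron 1, 0.43 ± 0.30 in intron 2 and 0.40 ± 0.29 in intron 12. In intron 2 a single library, Dyrk1b 2 at 69.5 CPM, stood above the other 5, which lay between 30.4 and 41.0. Without it the log2 change was 0.04.

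Atf6, the membrane-bound factor released by cleavage in the Golgi, had a peak in exon 1 and another in intron 8. The exon 1 peak held 34.0, 20.7 and 32.3 CPM in the controls and 25.2, 24.3 and 19.96 with Dyrk1b, a log2 change of -0.34 ± 0.37 (SE). The intron 8 peak held 43.4, 30.4 and 26.9 CPM in the controls and 51.8, 33.1 and 33.0 with Dyrk1b, a log2 change of 0.20 ± 0.31 (SE). Groups overlapped at both peaks, and the intronic value turned to -0.02 without Dyrk1b 1.

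**Figure D2:**
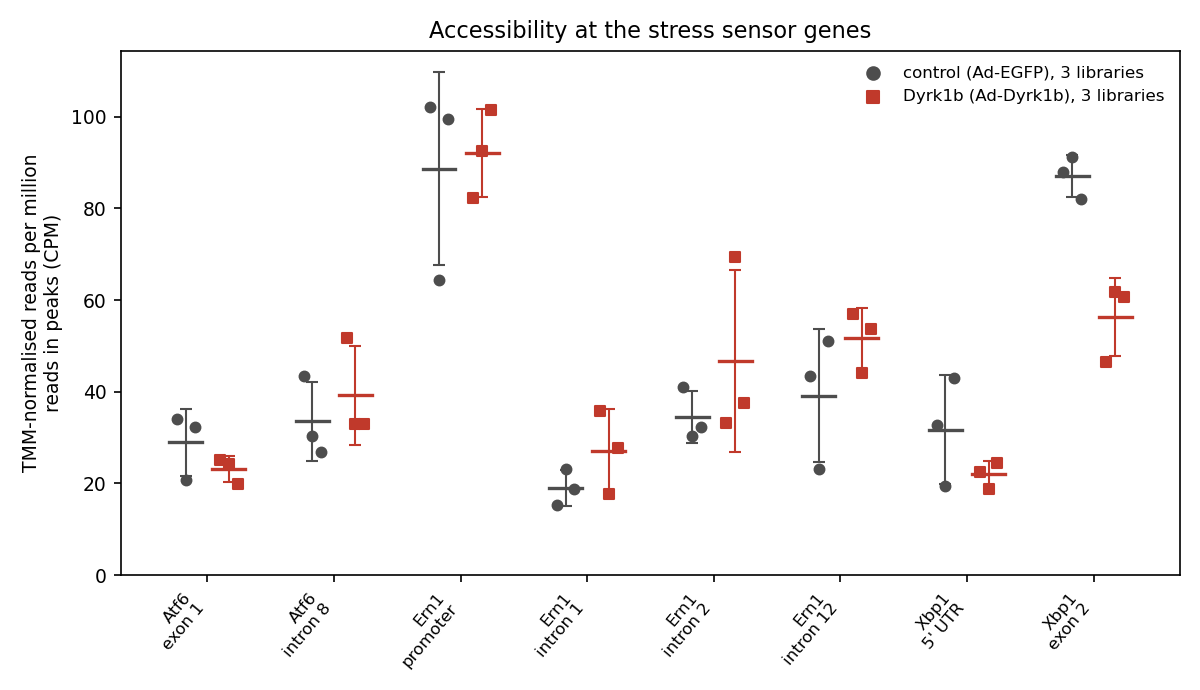
Accessibility in CPM (y axis, linear) at each of the 8 peaks of Atf6, Ern1 and Xbp1, with 1 point per library, a bar for the group mean and whiskers for 1 SD (n = 3 per group). Only the Xbp1 exon 2 peak shows groups that do not overlap, with controls from 82.0 to 91.1 and Dyrk1b libraries from 46.4 to 61.7.

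The stress response effectors carry signals from the sensors to translation, kinase cascades and cell survival. Their 33 peaks at 14 genes had 19 positive and 14 negative log2 changes with a median of 0.15. At an unadjusted p under 0.05, 3 had higher and 3 had lower values (9.09% each way), near the 6.44% and 7.72% of all peaks. Map3k5, the kinase ASK1, and Traf2, the adaptor that binds IRE1, act in 1 cascade towards JNK, and each had a peak with lower values. In intron 7 of Map3k5 the controls held 69.2, 60.7 and 47.1 CPM and the Dyrk1b libraries 19.9, 34.2 and 43.0, a log2 change of -0.83 ± 0.29 (SE, adjusted p = 0.204 by edgeR). In intron 1 of Traf2, 94 bases past its start, the controls held 68.0, 48.6 and 56.5 CPM and the Dyrk1b libraries 42.5, 28.7 and 29.9, a log2 change of -0.80 ± 0.28 (SE, adjusted p = 0.216 by edgeR). Groups did not overlap at either peak. In intron 1 of Map3k5 a weaker peak went the other way, with a log2 change of 0.96 ± 0.47 (SE, adjusted p = 0.345 by edgeR). A second Traf2 peak, deeper in the gene, had a log2 change of 0.16 ± 0.27 (SE).

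At the promoter of Bcl2, the survival factor that holds back cell death at mitochondria and the endoplasmic reticulum, values were higher. The controls held 19.9, 25.5 and 40.3 CPM and the Dyrk1b libraries 42.5, 66.2 and 43.8, with every Dyrk1b library above every control. The log2 change was 0.84 ± 0.31 (SE, adjusted p = 0.230 by edgeR). Eif2s1, the subunit of eIF2 that PERK phosphorylates, had a log2 change of -0.53 ± 0.22 (SE, adjusted p = 0.275 by edgeR) in its 5′ UTR, with groups that overlapped. The other eIF2 kinases had promoter log2 changes of 0.29 at Eif2ak1, 0.15 at Eif2ak2 and -0.03 at Eif2ak4, all with overlapping groups.

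Translocation genes had 20 tested peaks at 11 genes, 11 with a positive and 9 with a negative log2 change, and a median of 0.11. Tram1, a membrane protein that helps chains pass the Sec61 channel, had a pair of peaks classed as downstream, and both had higher values with Dyrk1b. The first (chromosome 1, 13631606 to 13632294) held 11.7, 34.0 and 24.2 CPM in the controls and 65.0, 49.6 and 39.9 with Dyrk1b, a log2 change of 1.12 ± 0.33 (SE, adjusted p = 0.140 by edgeR). The second, weaker peak held 2.34, 10.9 and 12.1 CPM in the controls and 21.2, 24.3 and 20.7 with Dyrk1b, a log2 change of 1.39 ± 0.56 (SE, adjusted p = 0.268 by edgeR). In both, every Dyrk1b library lay above every control. The peaks lie close together and far from the start of Tram1, and the assignment to this gene is the authors'.

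The channel itself was close to level. Log2 changes were 0.30 ± 0.28 (SE) at Sec61a1, -0.02 ± 0.22 at the promoter of Sec61b, -0.25 ± 0.22 at Sec62 and -0.12 ± 0.27 at the promoter of Sec63. The groups overlapped at each of these peaks. Rrbp1, a ribosome receptor of the rough endoplasmic reticulum, had 128, 108 and 101 CPM in the controls and 83.6, 78.3 and 86.0 with Dyrk1b at the peak nearest its start. Its log2 change was -0.44 ± 0.21 (SE, adjusted p = 0.340 by edgeR), with no overlap between groups. Sil1, an exchange factor for the lumenal chaperone BiP, had 7 intronic peaks, 6 of them with a positive log2 change, from -0.10 to 0.61.

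The oligosaccharyltransferase, which adds the N-glycan to the entering chain, had 11 peaks at 6 genes, 4 with a positive and 7 with a negative log2 change, and a median of -0.11. Stt3a, its catalytic subunit at the channel, held 43.4, 60.7 and 88.7 CPM in the controls and 30.5, 40.8 and 35.3 with Dyrk1b at its 5′ UTR (chromosome 9, 36678576 to 36679327). The controls spread widely but stayed above all Dyrk1b libraries, and the log2 change was -0.84 ± 0.28 (SE, adjusted p = 0.190 by edgeR). The alternative catalytic subunit Stt3b had a promoter log2 change of -0.11 ± 0.21 (SE) and 3 intronic peaks from 0.07 to 0.46. Among the accessory subunits, the 5′ UTR of Rpn2 had -0.48 ± 0.31 (SE) and the promoter of Ddost 0.32 ± 0.27 (SE).

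Lumenal chaperones and disulfide enzymes had 12 peaks at 8 genes, 4 with a positive and 8 with a negative log2 change, and a median of -0.14. Dnajc3 had the lowest log2 change of any peak of the pathway, in intron 1 (chromosome 14, 119189406 to 119190002). The controls held 57.5, 52.2 and 47.1 CPM and the Dyrk1b libraries 29.2, 27.6 and 20.7, a log2 change of -1.04 ± 0.30 (SE, adjusted p = 0.140 by edgeR). The groups lay well apart, with controls within a narrow range. At the Dnajc3 promoter, whose sequence is shown above, the controls held 49.2, 47.4 and 47.1 CPM and the Dyrk1b libraries 43.8, 34.2 and 31.5. This log2 change was -0.41 ± 0.29 (SE, adjusted p = 0.508 by edgeR), again with no overlap, and the 3′ UTR peak of the gene had 0.04 ± 0.32 (SE).

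At the promoter of Ero1b (chromosome 13, 12580394 to 12581101), the second gene printed with an ER stress response element, the controls held 84.4, 101 and 71.3 CPM and the Dyrk1b libraries 63.7, 50.7 and 56.1. All Dyrk1b libraries lay below all controls, with a log2 change of -0.60 ± 0.23 (SE, adjusted p = 0.255 by edgeR). Its intron 2 peak had 0.43 ± 0.40 (SE), and the related oxidase Ero1a had 0.01 ± 0.25 (SE). Canx, the other gene printed with that element, held 35.2, 44.9 and 32.3 CPM in the controls and 13.3, 20.9 and 35.3 with Dyrk1b at its promoter. There Dyrk1b 3 lay among the controls, and the log2 change was -0.63 ± 0.35 (SE, adjusted p = 0.396 by edgeR). The promoter peaks of all 3 genes thus had negative log2 changes, none of them past the threshold. Peaks and elements were joined by gene symbol only, so whether a peak covers its element was not tested. The Canx peak, 327 bases long, had a distance of -449 bases to its start, farther than its element. Negative values were common at promoter peaks, at 65.4% of those of the pathway and 56.9% of those of the whole table. The protein disulfide isomerase Pdia4 had -0.33 ± 0.27 (SE) in its 5′ UTR, with overlapping groups.

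Promoter peaks of the genes with the XBP1 element went both ways. Log2 changes were -0.31 ± 0.25 (SE) at Mapk8, the kinase JNK1, and -0.20 ± 0.21 at Sec23a. At Ube2j1, a ubiquitin-conjugating enzyme of ERAD, the value was 0.37 ± 0.36 (SE), and at Vcp, the ATPase that pulls chains from the membrane, it was 0.02 ± 0.28. Sec24d, a cargo adaptor of COPII, and Txndc5, a disulfide isomerase, each had a pair of promoter peaks with opposite signs, -0.17 and 0.12 at Sec24d and -0.02 and 0.17 at Txndc5. The groups overlapped at all of these peaks. Whether they cover the element was not tested. The Vcp peak lay 675 bases past its start and 1 of the Txndc5 peaks 2165 bases past.

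The lectins and glycan-trimming enzymes of the calnexin cycle decide whether a glycoprotein is folded again or sent to ERAD. Their 19 peaks at 15 genes had 6 positive and 13 negative log2 changes with a median of -0.22, the lowest of the 10 role groups. This median was -0.21 with loess offsets and -0.05 when libraries were scaled by the totals behind the RPKM values. Within the group, the mannosidases went different ways. The Man1a peak near the start held 44.6, 29.2 and 47.1 CPM in the controls and 15.9, 24.3 and 26.1 with Dyrk1b, a log2 change of -0.83 ± 0.34 (SE, adjusted p = 0.273 by edgeR) with no overlap. In intron 4 of Man1c1 the controls held 14.1, 14.6 and 21.5 CPM and the Dyrk1b libraries 58.4, 32.0 and 22.3, a log2 change of 1.13 ± 0.39 (SE, adjusted p = 0.205 by edgeR). Library Dyrk1b 1 lay highest, and the log2 change was 0.69 without it.

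Edem1, Edem2 and Edem3, which mark misfolded glycoproteins for ERAD by trimming mannose, had 5 peaks, and the log2 changes of all 5 were negative. At the Edem3 promoter the controls held 125, 131 and 121 CPM and the Dyrk1b libraries 87.6, 104 and 86.0, a log2 change of -0.45 ± 0.21 (SE, adjusted p = 0.320 by edgeR). The groups did not overlap. The other values were -0.32 ± 0.26 (SE) and -0.56 ± 0.32 at Edem1 and -0.21 ± 0.33 and -0.39 ± 0.34 at Edem2. This set of 5 peaks was picked out after their values were seen. Uggt1, the glucosyltransferase that senses folding, had 0.15 ± 0.27 (SE).

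ERAD ligases, their E2 enzymes and membrane partners had 37 peaks at 20 genes, 15 with a positive and 22 with a negative log2 change, and a median of -0.12. Cul1, the scaffold of SCF ubiquitin ligases, held 55.1, 57.1 and 63.2 CPM in the controls and 59.7, 95.9 and 107 with Dyrk1b in intron 1, a log2 change of 0.61 ± 0.24 (SE, adjusted p = 0.253 by edgeR). Dyrk1b 1 lay within the range of the controls. The conjugating enzyme Ube2j2 held 72.7, 58.3 and 65.9 CPM in the controls and 45.1, 47.4 and 43.0 with Dyrk1b at its promoter, a log2 change of -0.54 ± 0.25 (SE, adjusted p = 0.324 by edgeR), with no overlap. Of the derlins, channel-like proteins of the dislocation complex, Derl2 had 3 peaks with negative values from -0.44 to -0.10, and Derl1 had -0.34 ± 0.24 (SE) at its promoter and 0.70 ± 0.45 in an intron.

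The genes of dislocation and shuttling, which carry chains to the proteasome, had 18 peaks at 12 genes, 7 with a positive and 11 with a negative log2 change. Their median of -0.08 turned to 0.06 with loess offsets and to 0.10 with the RPKM library totals. The shuttle Ubqln1 held 61.0, 74.1 and 78.0 CPM in the controls and 59.7, 45.2 and 42.2 with Dyrk1b at its promoter, a log2 change of -0.55 ± 0.25 (SE, adjusted p = 0.313 by edgeR). The cofactor Ubxn1 had -0.51 ± 0.23 (SE, adjusted p = 0.309 by edgeR) in its 5′ UTR. In both, the Dyrk1b libraries lay below the controls without overlap. The related shuttle Ubqln4 had 0.55 ± 0.27 (SE, adjusted p = 0.345 by edgeR) in its 3′ UTR and -0.07 ± 0.22 in its 5′ UTR.

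COPII export genes had 19 peaks at 9 genes, 8 with a positive and 11 with a negative log2 change, and a median of -0.17. The coat genes Sec31a and Sec31b differed in sign. All 3 Sec31b peaks were positive, from 0.02 to 1.28, and 3 of the 4 Sec31a peaks were negative, from -0.55 to 0.18. At the Sec31a promoter the controls held 77.4, 98.4 and 106 CPM and the Dyrk1b libraries 58.4, 79.4 and 62.2, a log2 change of -0.49 ± 0.23 (SE, adjusted p = 0.318 by edgeR), with control 1 inside the Dyrk1b range. Whether the genes differ was not tested. Sar1b, the GTPase that starts coat assembly and is needed to secrete large lipoproteins, had 3 intronic peaks with negative values. In intron 4 of Sar1b the controls held 55.1, 23.1 and 36.3 CPM and the Dyrk1b libraries 29.2, 11.03 and 23.8, a log2 change of -0.84 ± 0.36 (SE, adjusted p = 0.294 by edgeR). The cargo adaptor Sec24c held 115, 103 and 90.1 CPM in the controls and 70.3, 67.3 and 76.0 with Dyrk1b at its 5′ UTR, a log2 change of -0.53 ± 0.22 (SE, adjusted p = 0.276 by edgeR) with no overlap.

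Cytosolic chaperones and cofactors of the pathway had 14 peaks at 11 genes, 7 positive and 7 negative, with a median log2 change of -0.04. Dnajc5b held 17.6, 24.3 and 21.5 CPM in the controls and 33.2, 41.9 and 36.9 with Dyrk1b near its start, a log2 change of 0.82 ± 0.35 (SE, adjusted p = 0.285 by edgeR). Hspbp1, an exchange factor of Hsp70, had a weak intronic peak at 4.69, 7.29 and 16.1 CPM in the controls and 22.6, 20.9 and 17.7 with Dyrk1b. Its log2 change of 1.12 ± 0.56 (SE, adjusted p = 0.352 by edgeR) was 1.74 without control 3. At Hspa1l, an Hsp70 gene, the log2 change of 0.62 ± 0.32 (SE) rested on Dyrk1b 3 at 83.7 CPM and was -0.04 without it. Gm20538, the 1 gene in no role group, had a log2 change of 0.41 ± 0.47 (SE).

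**Figure D3:**
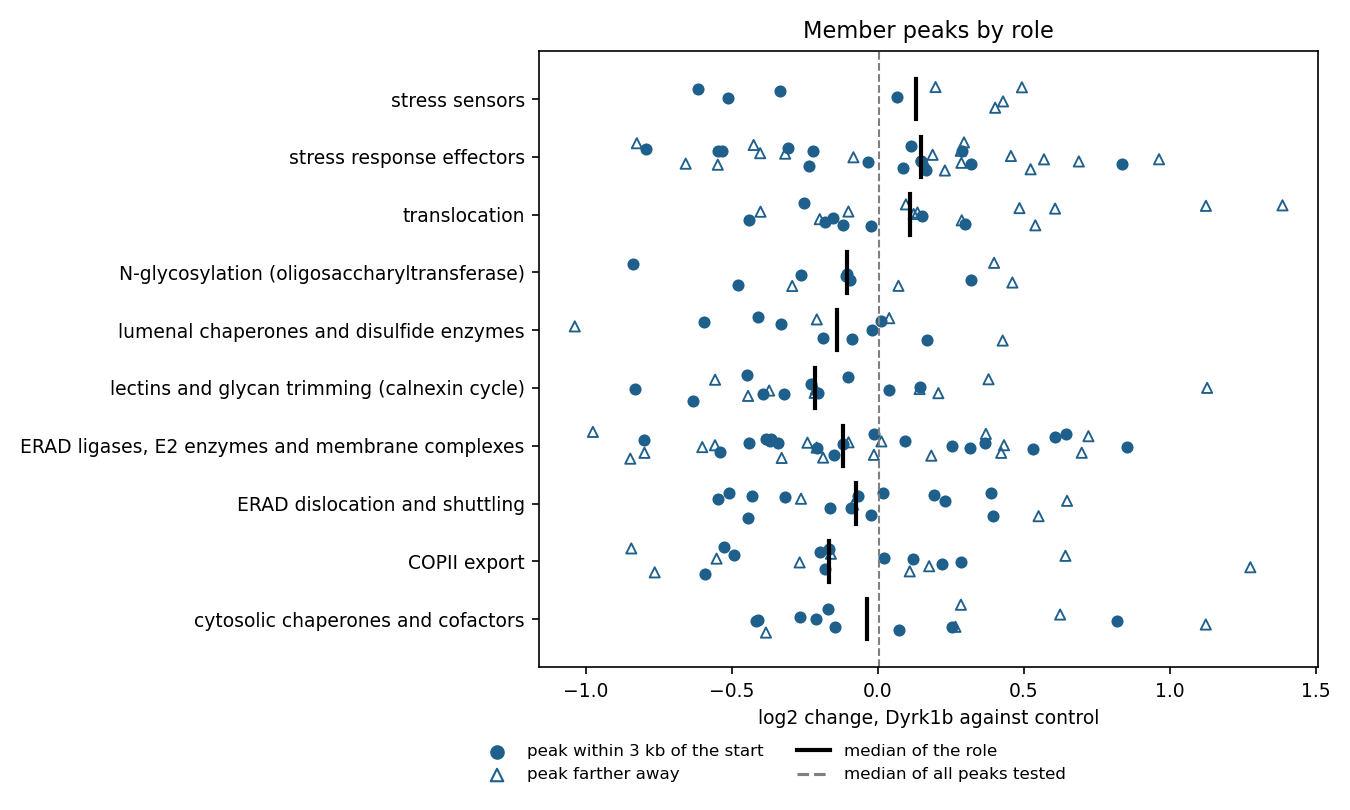
Log2 change of Dyrk1b against control (x axis) for the 191 tested peaks of the 10 role groups (y axis), with filled circles for peaks within 3 kb of the start and open triangles for peaks farther away. Black bars mark group medians, from -0.22 for the lectins to 0.15 for the stress response effectors, and the dashed line marks the median of all peaks tested, 0.005.

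Peaks near starts and peaks farther away had medians of opposite sign. A promoter peak is one that the authors classed as promoter or that lies at most 3 kb from the start of its gene. There were 104 at 94 of the 110 genes, of which 68 had a negative log2 change (65.4%), beside 56.9% of all promoter peaks. Their median was -0.15, beside -0.07 for all promoter peaks. At an unadjusted p under 0.05, 13 of the 104 had lower values, or 12.5% beside a background of 8.85%, and 5 had higher values, or 4.81% beside 4.68%. In 12 of the 104 all Dyrk1b libraries lay below all controls, or 11.5% beside 11.8% of all promoter peaks. In 5 all lay above, or 4.81% beside 6.71%. The 88 tested peaks beyond 3 kb had 51 positive and 37 negative log2 changes with a median of 0.14, beside 0.08 for all such peaks. Summed over the 104 promoter peaks, the controls held 6689, 6204 and 6785 CPM and the Dyrk1b libraries 5890, 6156 and 5858, and the groups did not overlap. As a share of the reads in peaks, with no TMM factor, these groups did overlap, at 0.608% to 0.667% in the controls and 0.578% to 0.626% with Dyrk1b. Summed over the peaks beyond 3 kb, the groups overlapped, at 2810 to 2869 CPM in the controls and 2855 to 2955 with Dyrk1b. As a share of the reads in peaks they did not, at 0.278% to 0.280% in the controls and 0.290% to 0.298% with Dyrk1b. Which sum separates the groups thus depended on the scaling. Whether the promoter difference is larger at these genes than at others was not tested.

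The opposite signs of the medians were kept under some other scalings and lost under others. With the size factors of DESeq2 the promoter median was -0.15 and the median beyond 3 kb was 0.14. With scaling by reads in peaks only they were -0.11 and 0.17. The median promoter peak of the pathway held 49 reads per library and the median peak beyond 3 kb held 25. With loess offsets, which remove any trend of the log2 change with peak strength, the promoter median was -0.03 and 58 of the 104 promoter peaks were negative, while the median beyond 3 kb turned to -0.02. Scaling by the library totals behind the RPKM values moved the median of all peaks from 0.005 to 0.17. Under it the medians of 5 role groups turned positive but stayed below that of all peaks: 0.07 for the oligosaccharyltransferase, 0.04 for the lumenal chaperones, 0.04 for the ERAD ligases, 0.10 for dislocation and 0.12 for the cytosolic chaperones. The promoter median was then 0.02, beside 0.10 for all promoter peaks. The median beyond 3 kb was 0.30, beside 0.24 for all such peaks, so the promoter median stayed the lower. The split of the pathway peaks at an unadjusted p under 0.05 moved from 13 higher and 17 lower to 13 higher and 1 lower. The same split of all peaks was not counted under this scaling, so the move cannot be called particular to the pathway genes. With TMM, the median beyond 3 kb was 0.04 without control 1 and 0.02 without Dyrk1b 1.

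**Figure D4:**
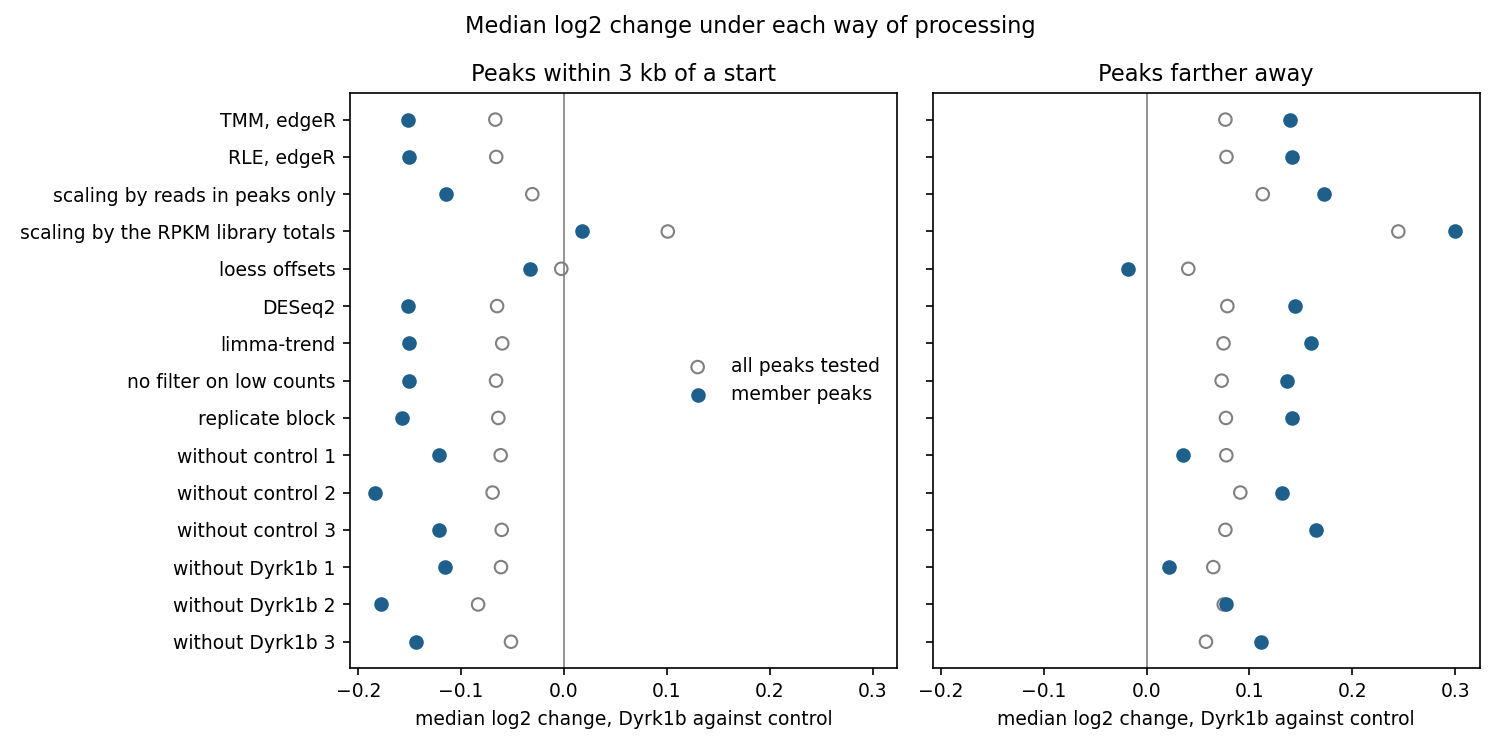
Median log2 change of Dyrk1b against control (x axis) under 15 ways of processing (y axis), for peaks within 3 kb of a start (left) and farther away (right). Filled circles are peaks of the pathway genes and open circles all peaks tested; the promoter median of the pathway genes runs from -0.18 without control 2 to 0.02 with the RPKM library totals.

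Within single genes the same difference was seen in most but not all. Both kinds of peak were tested at 30 genes, and in 21 of them (70.0%) the median beyond 3 kb lay above that of the promoter, beside 59.4% of 2551 genes in the whole table. With loess offsets the count was 19 of 30 (63.3%), beside 51.8%. The gap was widest at Hspbp1, with -0.42 ± 0.22 (SE) in the 5′ UTR against 1.12 in intron 4, and it ran the other way at Dnajc5b, with 0.82 near the start against -0.38 deeper in the gene.

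Genes with many peaks gave another view of how uniform a locus was. Of the 110 genes, 68 had 1 peak, 24 had 2 and 18 had 3 or more. In 3 of those 18 all peaks were positive (Ern1, Sec31b and Ube4b) and in 2 all were negative (Derl2 and Sar1b), while the other 13 were mixed. Map3k5 had 4 positive and 4 negative peaks, from -0.83 to 0.96. Capn2, a calpain protease, had 3 of each, from -0.66 to 0.57, and at its highest peak the controls held 38.7, 51.0 and 68.6 CPM against 70.3, 90.4 and 72.9 with Dyrk1b. Of the remaining mixed genes, Eif2ak4 ran from -0.03 to 0.30, Mapk8 from -0.31 to 0.69 and Nploc4, a cofactor of Vcp, from -0.26 to 0.40.

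**Figure D5:**
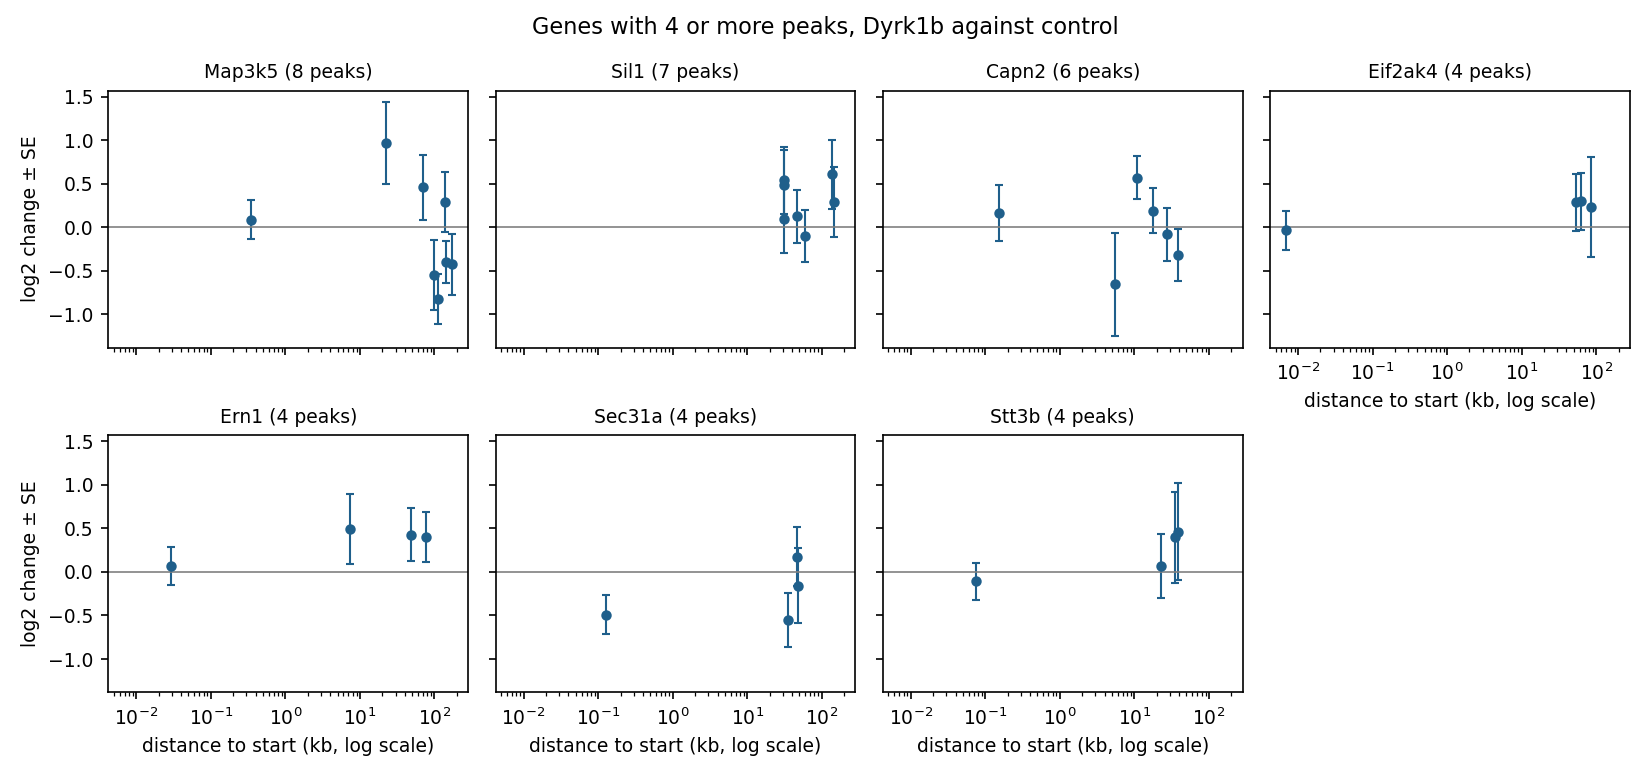
Log2 change of Dyrk1b against control with 1 SE (y axis) against distance to the start in kb (x axis, log scale) for each peak of 7 pathway genes with 4 or more peaks. Signs are mixed within most genes, as at Map3k5 with values from -0.83 to 0.96, and all 4 peaks of Ern1 lie above 0.

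The pathway genes took 0.947%, 0.885% and 0.942% of the reads in peaks of controls 1 to 3 and 0.867%, 0.917% and 0.899% of those of Dyrk1b 1 to 3. The groups overlapped, and the difference of -0.030 percentage points was no larger than the pooled SD of 0.030. In level the peaks resembled the rest of the table, with a median of 1.70 RPKM beside 1.64 for all peaks. They lay more often near a start, at 53.9% beside 43.4%.

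Another 3 related groups of genes outside the pathway annotation were read the same way, and none of their peaks passed the threshold. Other targets of the unfolded protein response had 40 peaks at 22 genes, 18 positive and 22 negative, with a median log2 change of -0.13. At the promoter of Tmbim6, which encodes the cell death suppressor BI-1, the controls averaged 59.0 ± 24.8 CPM and the Dyrk1b libraries 24.9 ± 6.75 (SD, n = 3), a log2 change of -1.20 ± 0.31 (SE, adjusted p = 0.107 by edgeR). Creb3l3, a liver factor cleaved like ATF6, averaged 71.2 ± 2.97 CPM in the controls and 42.1 ± 5.97 with Dyrk1b (SD, n = 3), a log2 change of -0.75 ± 0.25 (SE, adjusted p = 0.193 by edgeR). At both genes the groups did not overlap.

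The signal recognition particle and signal peptidase, which deliver and trim new chains, had 11 peaks at 10 genes, 2 positive and 9 negative, with a median log2 change of -0.33. This median was -0.31 with loess offsets and -0.17 with the RPKM library totals. Of the 11, 8 were promoter peaks. At an unadjusted p under 0.05, 4 of the 11 (36.4%) had lower values, beside 7.72% of all peaks and 8.85% of all promoter peaks. Among them were the peptidase subunits Sec11c at -0.59 ± 0.22 (SE, adjusted p = 0.238 by edgeR) and Spcs2 at -0.51 ± 0.21 (SE, adjusted p = 0.276 by edgeR). The Spcs2 peak was classed as 3′ UTR, 20948 bases from the start, and its assignment to this gene is the authors'. Genes that build the lipid-linked glycan had 21 peaks at 16 genes, 10 positive and 11 negative, with a median of -0.01. Mpdu1 had -0.95 ± 0.29 (SE, adjusted p = 0.167 by edgeR) at its promoter and the mannosyltransferase Alg9 had 1.10 ± 0.40 (SE, adjusted p = 0.227 by edgeR) in its 5′ UTR.

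Markers of liver cell types were read beside these results. Of 17 hepatocyte markers, 7 had a peak, 9 in all, of which 4 were promoter peaks. Of the 9 log2 changes, 8 were negative (88.9%), beside 49.5% of all peaks and 56.9% of all promoter peaks, with a median of -0.39. Their summed level was 381 to 621 CPM in the controls and 394 to 441 with Dyrk1b, so the groups overlapped. Markers of other liver and blood cells had 22 peaks at 14 genes, 13 of them positive, with a median of 0.17. Only 3 of the 22 were promoter peaks, and 40.9% were negative, beside 43.8% of all peaks beyond 3 kb. Their summed level was 709 to 746 CPM in the controls and 756 to 796 with Dyrk1b, with no overlap. The summed levels of the cell types differed in direction. Mean summed levels fell from 191 to 174 CPM for Kupffer cells and macrophages and from 42.9 to 27.7 for T and NK cells. They were higher with Dyrk1b for sinusoidal endothelial cells, stellate cells, B and plasma cells and neutrophils. Some sums rested on single peaks, as for T and NK cells (Cd4) and neutrophils (S100a8), with 1 peak each. Of the 3 Kupffer cell and macrophage peaks, 2 had a positive log2 change, and 1, at Spi1, went from 124 to 86.5 CPM. None of these marker peaks passed the threshold, and of 7 cholangiocyte markers 0 had a peak in the table. The part of cell makeup in the results above was not tested. In bulk liver, fewer cells of a type and less open chromatin per cell cannot be told apart.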

How the data were processed

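ATAC-seq of 6 mouse liver samples was analysed from 1 deposited table. Per the file headers it holds read counts per merged peak and library, the authors' RPKM values, the log2 ratio of mean RPKM, a p-value and an FDR per peak, and a gene annotation. The submitters' processing notes name Bowtie2, DiffBind, ChIPseeker and mm10, but of 10554 gene symbols only 3.37% started within 2 kb of their GRCm38 position, so coordinates are printed as deposited with the build unnamed. No source used here gives the peak caller, the handling of duplicates, any transposase shift or the authors' test. Deposited counts have no value under 1, so an empty peak may be entered as 1. Peak names run to 30387, and peaks outside the table were not analysed here. The RPKM values imply library totals of 38.1 M to 48.3 M reads, of which 1.67% to 2.62% lay in peaks.

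Counts were tested with edgeR 4.0.16 (TMM, filterByExpr, quasi-likelihood, Benjamini-Hochberg over 22051 peaks, threshold 0.05) in R 4.3.3. DESeq2 1.42.0, limma-trend (limma 3.58.1, prior count 2), other scalings, no filter and leaving out each library were alternatives. The genes and lists were chosen with earlier results of these data known. Peaks named are all those analysed of the sensors, Atf4, Ddit3, Hspa5 and Hsp90b1, the 3 per role list and 2 per outside list with the lowest p, and genes with 3 or more peaks. The second Tram1 peak, Eif2s1, the eIF2 kinases, the Sec61 channel genes, Canx, the genes with a motif, the Edem genes, Derl1, Uggt1, Ero1a and Gm20538 fall outside this rule and were picked with their values in view. Some items chosen by the rule are not reported here. The fit was first tested on simulated data.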

Additional observations from a re-analysis of the deposited data

How the results depend on the processing

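Peaks of the pathway genes held a median of 37 reads per library, and the common biological coefficient of variation was 19.9%. The log2 changes of these peaks had SEs of 0.20 to 0.60. A difference within these errors was not detectable at this depth, and larger ones, such as 1.28 ± 0.33 (SE) at Sec31b, were not called either. The absence of calls thus does not show an absence of change. No peak of the 110 genes was called in any of the alternatives run on them, and including the 7 heat shock genes gave 1, at Hsp90aa1. Of all peaks, 7 were called (2 higher, 5 lower), 4 with scaling by reads in peaks (2 and 2), 1 with the RPKM library totals (1 higher), 3 with loess offsets (1 and 2), 19 of the 5806 given an adjusted p by DESeq2 (all lower), 2 with limma-trend (both lower), and 0 to 10 with 1 library left out: 3 without control 1 or control 2, 1 without control 3 and 0 without Dyrk1b 3. The cause of these shifts was not tested.

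The median log2 change of the pathway peaks, -0.09, became 0.088 with the RPKM library totals and ran from -0.07 to -0.05 with 1 library left out. The promoter median, -0.15, became 0.017 with the RPKM library totals and -0.033 with loess offsets, and ran from -0.18 to -0.12 with 1 library left out. The difference in read share, -0.030 percentage points, became 0.00109 with the RPKM library totals as denominator and ran from -0.050 to -0.016 with 1 library left out. Of the 35 peaks chosen by the naming rule, 3 changed sign: Atf6 intron 8 to -0.022 without Dyrk1b 1, the Ern1 promoter to -0.12 without control 2 and -0.0099 without Dyrk1b 3, and Hspa1l to -0.037 without Dyrk1b 3. With 1 library left out their ranges were -0.022 to 0.43, -0.12 to 0.18 and -0.037 to 0.93. DESeq2 gave an adjusted p to 13 of the 35.

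Same-numbered control and Dyrk1b libraries did not deviate together, with correlations of -0.0098, -0.014 and 0.0073. No pairing by number was thus visible, but these values cannot show whether same-numbered samples were handled together. With the replicate number as a block, 7 peaks were called in all and 0 at the pathway genes, with medians of -0.08 over all their peaks and -0.16 over their promoter peaks.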
